A study of Zea mays with 6 samples.

Results

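The genes described here are 6 rows of an alpha-zein tandem cluster on maize chromosome 4, Zm00001d048806, Zm00001d048808, Zm00001d048809, Zm00001d048810, Zm00001d048816 and Zm00001d048817, out of 33051 gene IDs listed per library. They were chosen by ID number and by their high FPKM in the deposited tables, so their high level is a description and not a finding. The class and the chromosome come from the rule that chose them. The files pair no ID with a name (the ID of SUS1 is given in the series text), and 0 of the 6 IDs matched the RefSeq gene table used (assembly Zm-B73-REFERENCE-NAM-5.0), which itself holds 41 alpha-zein symbols, 27 of them on chromosome 4. Which of those symbols each ID stands for is therefore not given here.

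Alpha-zeins are prolamins, the alcohol-soluble storage proteins of maize seed. They are made in the starchy endosperm, carried into the endoplasmic reticulum and packed into protein bodies, where they fill the core, with the gamma- and beta-zeins around it. They are rich in glutamine, leucine and proline and nearly lack lysine and tryptophan. The genes have no introns and lie in tandem arrays of similar copies, and fragments from one copy can match another. The sources used here do not give how the authors assigned such fragments, so a level of a single copy is less certain than the sum over the copies.

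The libraries were made from whole kernels of the inbred line KN5585 at 10 days after pollination. The transgenic group, T, holds 3 libraries of 1 strain transformed with ZmSUS1, a sucrose synthase gene, and the control group, CK, holds 3 libraries of its non-transgenic negative control. No promoter is named for the transgene, and 1 strain cannot show how other transformation events behave. The stated aim was to see what extra SUS1 does to starch. SUS1 (Zm00001d047253), however, stood at 155 ± 5.37 FPKM in T and 215 ± 5.58 FPKM in CK (SD, n = 3 each), so it was lower in the libraries labelled transgenic (limma, adjusted p = 0.000759), and the groups are called by their labels throughout.

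FPKM scales the fragments of a gene by its length and by the mapped total of the library, so levels can be set side by side between genes. Summed FPKM was 1360216 to 1378937 in the T libraries and 1359751 to 1367563 in the CK libraries. Fragment totals are not given, so the depth behind a value is unknown, and at these levels no counting interval was computed. Because FPKM is relative, more RNA of these genes and less RNA of others cannot be told apart. In whole kernels, a different share of endosperm cells and a different amount of RNA per cell cannot be told apart either. No kernel cell type marker could be named from the files, so the tissue label was not checked against markers.

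All 6 copies were among the 20 most abundant of all listed genes. By mean FPKM over the 6 libraries, Zm00001d048817 was the highest at 40558, followed by Zm00001d048816 at 35618, Zm00001d048806 at 34295, Zm00001d048809 at 33632, Zm00001d048808 at 21636 and Zm00001d048810 at 11103 FPKM. Zm00001d048816, Zm00001d048806 and Zm00001d048809 overlapped in their library values, and their order was not the same in both groups. Zm00001d048806 came below Zm00001d048809 in the T means (32377 and 36490 FPKM) and above it in the CK means (36212 and 30774 FPKM). The rule left out Zm00001d048812, which lies between the members by ID number and stood at 17008 FPKM, above the lowest member. The next listed ID outside the 6 after it was Zm00001d048807 at 4568 FPKM.

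As a group, the copies took a larger part of the T libraries. The 6 copies summed to 184770, 187246 and 195303 FPKM in T libraries 1 to 3, against 156320, 163546 and 173867 FPKM in CK libraries 1 to 3. Every T sum lay above every CK sum. The mean was 189107 ± 5507 FPKM in T and 164578 ± 8819 FPKM in CK (SD, n = 3 each), which is 14.9% higher in T. Summed over all listed IDs from Zm00001d048806 to Zm00001d048817, Zm00001d048812 included, the mean was 13.9% higher in T. As a share of the summed FPKM of all listed genes, the copies held 13.8 ± 0.493% in T and 12.1 ± 0.679% in CK (SD, n = 3 each). No p-value is given for the sum or for this share, because the members were chosen with earlier results of these data known.

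Within the sum, the copies had mean differences of unlike size and direction on deposited values. Of the 6 copies, 3 rose in T by the limma test across the 20514 genes that averaged 1 FPKM or more, and 0 fell (also 0 at an unadjusted p under 0.05), against 2.88% of all tested genes that rose and 16.2% that fell (19.0% called in either direction). The 3 were Zm00001d048808, Zm00001d048810 and Zm00001d048816. On the log2(FPKM + 1) scale, the copies had a median log2 fold change of 0.29 and all tested genes one of -0.13. For 5 copies every T library lay above every CK library, as in 7.36% of all tested genes. For Zm00001d048806 every T library lay below every CK library, as in 31.6% of all tested genes, and the groups lay apart in one direction or the other in 38.9% of them.

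**Figure D1:**
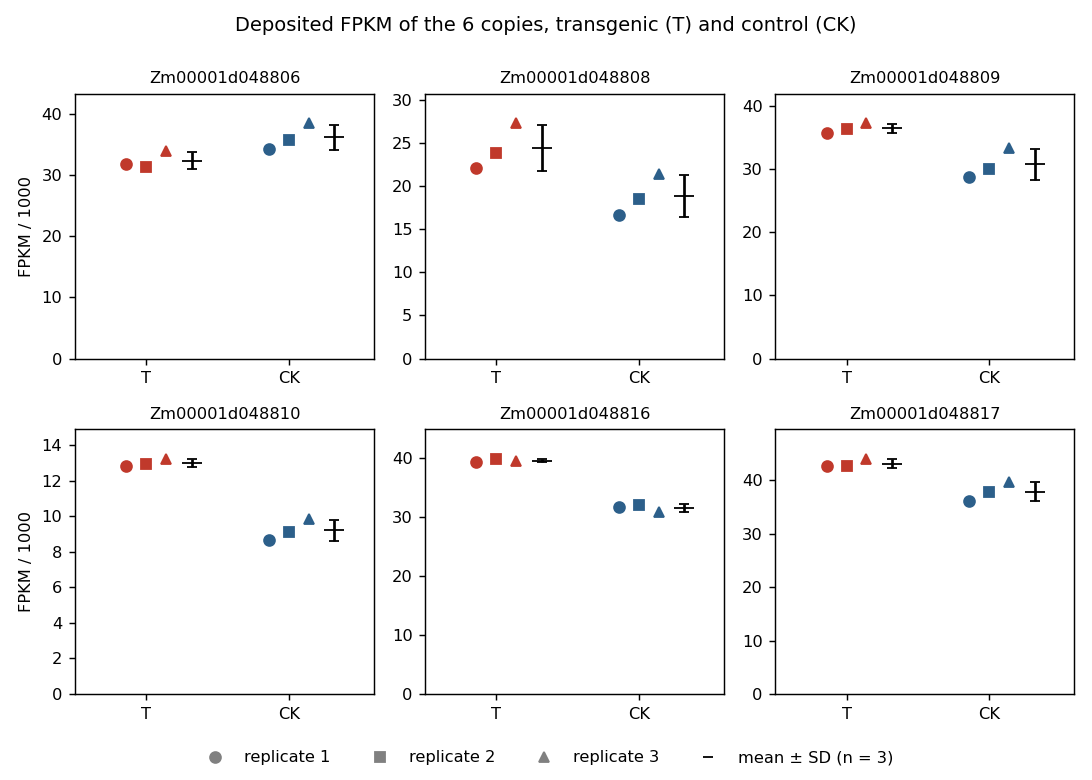
FPKM (divided by 1000, axes from 0) of the 6 copies in the 3 T libraries (red, left) and the 3 CK libraries (blue, right), one panel per copy, with symbols for the replicate number and the mean ± SD beside them. The T points sit above the CK points in 5 panels and below them for Zm00001d048806. The fitted log2 fold change of Zm00001d048806 is near 0 once FPKM is scaled to all but the 20 most abundant genes, and -0.29 with quantile normalization.

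The largest relative difference among the 6 was in Zm00001d048810, the least abundant copy. In FPKM, its difference in means of 3794 was the smallest in size of the 6. It had 12810, 12962 and 13228 FPKM in the T libraries, against 8676, 9107 and 9835 FPKM in the CK libraries. The lowest T value was well above the highest CK value, and the T libraries were close together. Its mean was 41.2% higher in T, a log2 fold change of 0.50 ± 0.0632 (SE; limma, adjusted p = 0.00165). This copy passed the test in all 20 alternative fits.

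Zm00001d048816 had 39471, 39934 and 39504 FPKM in the T libraries, against 31696, 32165 and 30938 FPKM in the CK libraries. Both groups were narrow, with SDs of 258 FPKM in T and 619 FPKM in CK. The mean was 25.4% higher in T, a log2 fold change of 0.33 ± 0.0595 (SE; limma, adjusted p = 0.00781). The call was lost when T library 2 was left out (limma, adjusted p = 0.0564), with almost the same log2 fold change of 0.32, and with no filter on low values (limma, adjusted p = 0.178).

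Zm00001d048808 had 22087, 23886 and 27285 FPKM in the T libraries, against 16661, 18472 and 21427 FPKM in the CK libraries. Library 3 was the highest of both groups, and the highest CK value came close to the lowest T value. The mean was 29.5% higher in T, a log2 fold change of 0.38 ± 0.111 (SE; limma, adjusted p = 0.0493). This call stood just under the threshold of 0.05, and leaving out any one library other than CK library 3 ended it (limma, adjusted p from 0.0520 to 0.148).

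Zm00001d048809 and Zm00001d048817 were higher in T by their means and did not pass. Zm00001d048809 had 35770, 36420 and 37281 FPKM in the T libraries, against 28747, 30122 and 33453 FPKM in the CK libraries. Its log2 fold change was 0.25 (limma, adjusted p = 0.0514), just over the threshold. Zm00001d048817, the most abundant copy, had 42802, 42685 and 44062 FPKM in the T libraries, against 36182, 37902 and 39714 FPKM in the CK libraries. Its log2 fold change was 0.19 (limma, adjusted p = 0.0826). In neither copy did the groups overlap, and in both the CK libraries were more spread than the T libraries.

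Zm00001d048806 was the one copy with a lower mean in T. It had 31830, 31359 and 33943 FPKM in the T libraries, against 34359, 35777 and 38500 FPKM in the CK libraries. The groups did not overlap, but the highest T value was close to the lowest CK value. Its log2 fold change of -0.16 ± 0.0714 (SE; limma, adjusted p = 0.154) did not pass. It was -0.012 with median-ratio rescaling, turned to 0.0057 when FPKM was scaled to all but the 20 most abundant genes, and was -0.29 with quantile normalization, where it passed (limma, adjusted p = 0.0164).

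Same-numbered libraries of the groups deviated together across all genes, though numbers 1 and 2 were not clearly told apart. A fit that took the replicate number as a block called all 6 copies. In that fit 5 rose and Zm00001d048806 fell, against 3.49% of all tested genes that rose and 18.3% that fell. The log2 fold changes were the same as without the block and the standard errors smaller. The adjusted p with the block was 0.00353 for Zm00001d048809, 0.00324 for Zm00001d048817 and 0.00500 for Zm00001d048806 (limma). For each copy, the ratios within replicate numbers 1 to 3 had the same direction, and their spread differed by copy. T over CK was 1.48, 1.42 and 1.34 for Zm00001d048810 in replicate numbers 1 to 3, and 1.33, 1.29 and 1.27 for Zm00001d048808. It was 0.926, 0.877 and 0.882 for Zm00001d048806. The pairing was read from the values and is not stated in the labels, so these p-values rest on a pairing chosen from the same data.

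Rescaling shifted these differences. The median of all tested genes was -0.13 on deposited values and 0.00067 with median-ratio rescaling. With that rescaling 5 of the 6 copies rose and 0 fell, against 6.29% of all tested genes that rose and 7.36% that fell, and the log2 fold changes ran from -0.012 for Zm00001d048806 to 0.65 for Zm00001d048810. With quantile normalization Zm00001d048810 and Zm00001d048816 rose and Zm00001d048806 fell, against 6.67% and 7.02% of all tested genes, and Zm00001d048817 had a log2 fold change of 0.021. The order of the extremes did not change, with Zm00001d048810 at the top and Zm00001d048806 at the bottom under each of these scalings. Median-ratio rescaling moves all copies of a library alike, so of these only quantile normalization could change that order.

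**Figure D2:**
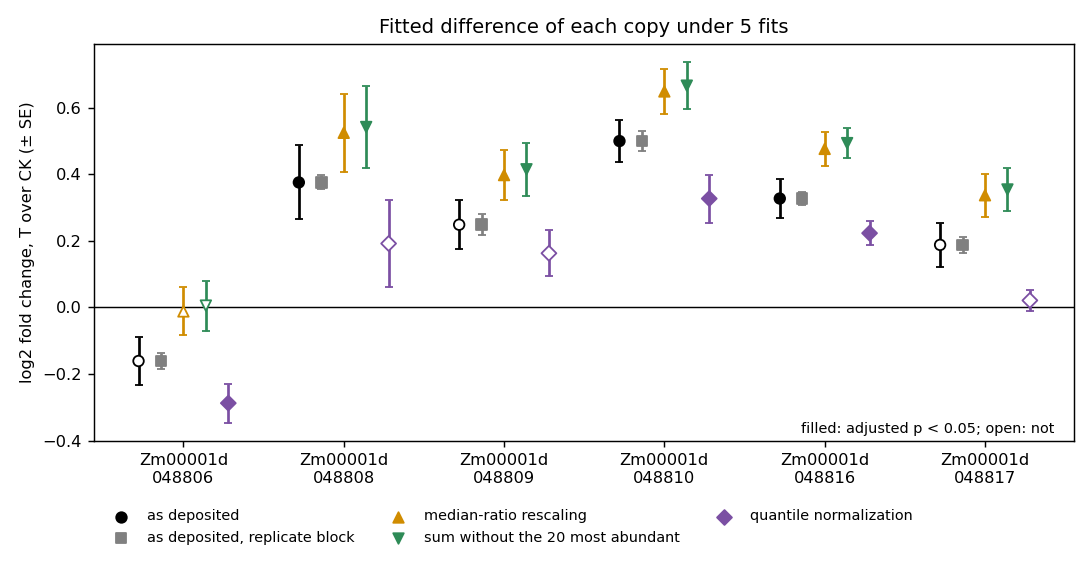
Log2 fold change of T over CK (± SE) for the 6 copies under 5 fits, on deposited FPKM without and with the replicate block and after 3 rescalings, where filled symbols passed an adjusted p of 0.05 and open ones did not. Zm00001d048810 is the highest copy and Zm00001d048806 the lowest in each fit, and the sign of Zm00001d048806 turns, at 0.0057, when FPKM is scaled to all but the 20 most abundant genes.

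The share of each copy in the sum of the 6 does not depend on how a library is scaled, and it showed how the makeup of the cluster differed. Zm00001d048806 held 17.2%, 16.7% and 17.4% of the sum in the T libraries, against 22.0%, 21.9% and 22.1% in the CK libraries. The groups were far apart compared with their spread, with means of 17.1 ± 0.330% in T and 22.0 ± 0.135% in CK (SD, n = 3 each). In T the mean shares of Zm00001d048809, Zm00001d048816 and Zm00001d048817 were larger, and in CK that of Zm00001d048817 alone. Zm00001d048810 held 6.93%, 6.92% and 6.77% in the T libraries, against 5.55%, 5.57% and 5.66% in the CK libraries. These groups did not overlap either. For both copies the exact permutation p (2-sided) was 0.1, the smallest that 3 against 3 libraries allow, and 0.24 after adjustment over the 6 copies.

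The shares of the other 4 copies overlapped between the groups. Zm00001d048816 held 21.0 ± 0.645% in T and 19.2 ± 1.29% in CK, and Zm00001d048808 held 12.9 ± 1.02% in T and 11.4 ± 0.840% in CK (SD, n = 3 each). For Zm00001d048809 the shares were 19.3 ± 0.188% in T and 18.7 ± 0.483% in CK, and for Zm00001d048817 they were 22.8 ± 0.305% in T and 23.1 ± 0.185% in CK (SD, n = 3 each). The exact permutation p, which does not use the pairing, was 0.2 for the first 3 of these and 0.3 for Zm00001d048817. Within replicate numbers 1 to 3, the share in T over that in CK was 1.12, 1.13 and 1.13 for Zm00001d048808 and 1.05, 1.08 and 1.14 for Zm00001d048816, above 1 in every pair. For Zm00001d048809 and Zm00001d048817 the pairs differed in direction. The difference in share of Zm00001d048816 was 1.73 percentage points, and 1.00 without CK library 3. That of Zm00001d048808 was 1.47, and 0.930 without T library 3. That of Zm00001d048809 was 0.617, and 1.001 without library 3 of both groups. That of Zm00001d048817 was -0.21, and between -0.376 without T library 1 and -0.0738 without T library 3. A share must fall where others gain, so these 6 differences are not independent.

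**Figure D3:**
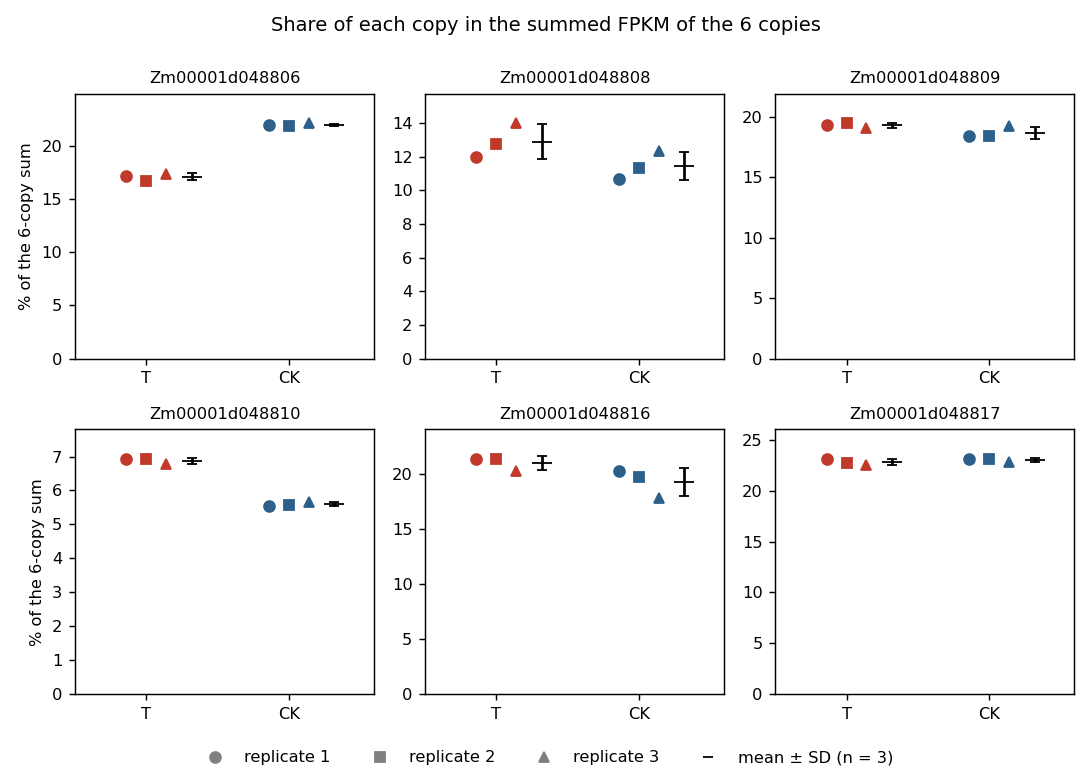
Share (%) of each copy in the summed FPKM of the 6 copies, axes from 0, for the 3 T libraries (red, left) and the 3 CK libraries (blue, right), with the mean ± SD beside them. The share of Zm00001d048806 is near 17% in T and near 22% in CK, Zm00001d048810 has a larger share in T, and the other 4 copies overlap.

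Without Zm00001d048806, the other 5 copies summed to 156729 ± 4273 FPKM in T and 128366 ± 6723 FPKM in CK (SD, n = 3 each), which is 22.1% higher in T. Zm00001d048806 over that sum was 0.208, 0.201 and 0.210 in the T libraries, against 0.282, 0.280 and 0.284 in the CK libraries. Both groups were tight and apart. Zm00001d048806 was set apart as the only copy with a lower mean in T. By construction, the 22.1% therefore exceeds the 14.9% of all 6 copies, and the ratio is lower in T. The difference in means, T minus CK, was -3835 FPKM for Zm00001d048806 and 28364 FPKM for the other 5 together. Singly, the differences of those 5 ran from 3794 FPKM for Zm00001d048810 to 8037 FPKM for Zm00001d048816. Whether fragments were assigned differently among similar copies was not tested.

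The ratio between a pair of copies was also compared in each library. Of 15 pairs, 9 had T and CK ratios that did not overlap, against 30.5% of the 190 pairs among the 20 most abundant genes, which include these 6. The 9 were all 5 pairs with Zm00001d048806 and 4 of the 10 pairs without it. Of those 4, 3 held Zm00001d048810, and the fourth was Zm00001d048816 over Zm00001d048817. The widest was Zm00001d048806 over Zm00001d048810, whose log2 ratio was 1.32 ± 0.0425 in T and 1.98 ± 0.00864 in CK (SD, n = 3 each). By contrast, Zm00001d048808 over Zm00001d048816 had a log2 ratio of -0.70 ± 0.155 in T and -0.75 ± 0.203 in CK (SD, n = 3 each; exact permutation p = 0.8). None of the 15 pairs could pass, with an exact permutation p of 0.1 at the lowest and 0.167 after adjustment over the 15.

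Across the 6 libraries the log2(FPKM + 1) values of the 5 copies other than Zm00001d048806 followed each other, with Pearson's r between 0.769 (Zm00001d048808 and Zm00001d048816) and 0.990 (Zm00001d048809 and Zm00001d048817). Zm00001d048806 had r between -0.842 and -0.317 with them. These are descriptions over n = 6 libraries in 2 groups that share the library totals, and they largely restate the group difference.

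The other listed IDs between Zm00001d048806 and Zm00001d048817 did not share one pattern. There were 4 of them, and they summed to 25133 ± 2043 FPKM in T and 23559 ± 1496 FPKM in CK (SD, n = 3 each), with overlapping groups. Zm00001d048812 had 16655, 16405 and 17853 FPKM in the T libraries, against 16308, 16614 and 18212 FPKM in the CK libraries. Its log2 fold change on deposited values was -0.0055 ± 0.0685 (SE; limma, adjusted p = 0.966), although it lies between copies that rose. Zm00001d048807 had 4301, 4097 and 8004 FPKM in the T libraries, against 2847, 2942 and 5214 FPKM in the CK libraries. Library 3 of each group stood far above the others, and the groups overlapped.

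For Zm00001d048807 the log2 fold change was 0.56 (limma, adjusted p = 0.221), and with the replicate block it rose (limma, adjusted p = 0.000189). Zm00001d048813 had 2691 ± 930 FPKM in T and 2839 ± 877 FPKM in CK (SD, n = 3 each; limma, adjusted p = 0.862). Zm00001d048814, at 3.82 ± 1.06 FPKM in T and 7.21 ± 0.672 FPKM in CK (SD, n = 3 each), was the only one of the 4 called on deposited values without the block, and it fell (limma, adjusted p = 0.0119). Among the 8 tested IDs numbered up to 10 before or after the cluster, 3 were called, all lower in T, with log2 fold changes from -1.19 to -0.26 at means of 18.6 to 90.3 FPKM, against 16.2% of all tested genes called lower. With median-ratio rescaling 1 of the 8 was called, lower in T, against 7.36% of all tested genes called lower. The replicate block called 3.49% of all tested genes higher and 18.3% lower. Of the 8, the block called 4, 1 of them higher in T (Zm00001d048818, limma, adjusted p = 0.00251, named after its values were seen).

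The nearest comparable genes by ID and level are Zm00001d048847 to Zm00001d048852, of which 5 of 6 stood above 1000 FPKM. Their sum was 139580 ± 2802 FPKM in T and 142542 ± 2311 FPKM in CK (SD, n = 3 each), with overlapping groups. None of the 6 was called on deposited values (limma, adjusted p from 0.757 to 0.973), with 0 at an unadjusted p under 0.05. With the replicate block also 0 were called, with 2 at an unadjusted p under 0.05. The 6 copies of the first cluster over this sum gave 1.36, 1.32 and 1.38 in the T libraries, against 1.11, 1.15 and 1.20 in the CK libraries. These ratios did not overlap and do not depend on the scaling of a library, but no p is given for them. Of the 10 pairs among the 5 abundant genes of the second set, 0 had ratios that did not overlap between T and CK. In some of these genes library 3 stood far from libraries 1 and 2 in both groups. Its ratio to their mean was 1.83 in T and 1.75 in CK for Zm00001d048851, and 0.644 and 0.597 for Zm00001d048852. Such spread within the groups leaves little room for non-overlap, so this count is not comparable with that of the 6 copies. The 14 other genes of the 20 most abundant include the 5 abundant genes of the second set. The 14 summed to 672301 ± 1710 FPKM in T and 627623 ± 6936 FPKM in CK (SD, n = 3 each), 7.12% higher in T. Of the 14, 1 rose by the limma test, against 2.88% of all tested genes. With the replicate block 6 rose and 1 fell, against 3.49% and 18.3% of all tested genes. With median-ratio rescaling 6 rose, against 6.29% of all tested genes, so higher values in T were not particular to the 6 copies.

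For 5 copies, library 3 of a group was above libraries 1 and 2 in T and in CK. The ratio of library 3 to the mean of libraries 1 and 2 was 1.19 in T and 1.22 in CK for Zm00001d048808, and 1.07 in T and 1.10 in CK for Zm00001d048806. For Zm00001d048816 it was 0.995 in T, where library 3 lay between the others, and 0.969 in CK. These ratios were small beside those of some neighbours. Zm00001d048807 had 1.91 in T and 1.80 in CK, and Zm00001d048813 had 0.501 in T and 0.547 in CK. Zm00001d048851 of the second set had 1.83 in T and 1.75 in CK. Without library 3 of both groups, all 6 copies were called, 5 higher and Zm00001d048806 lower in T (limma, adjusted p = 0.0454 for Zm00001d048806), against 2.04% of all tested genes called higher and 12.0% called lower, and the 6-copy sum was 1.16-fold that of CK.

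**Figure D4:**
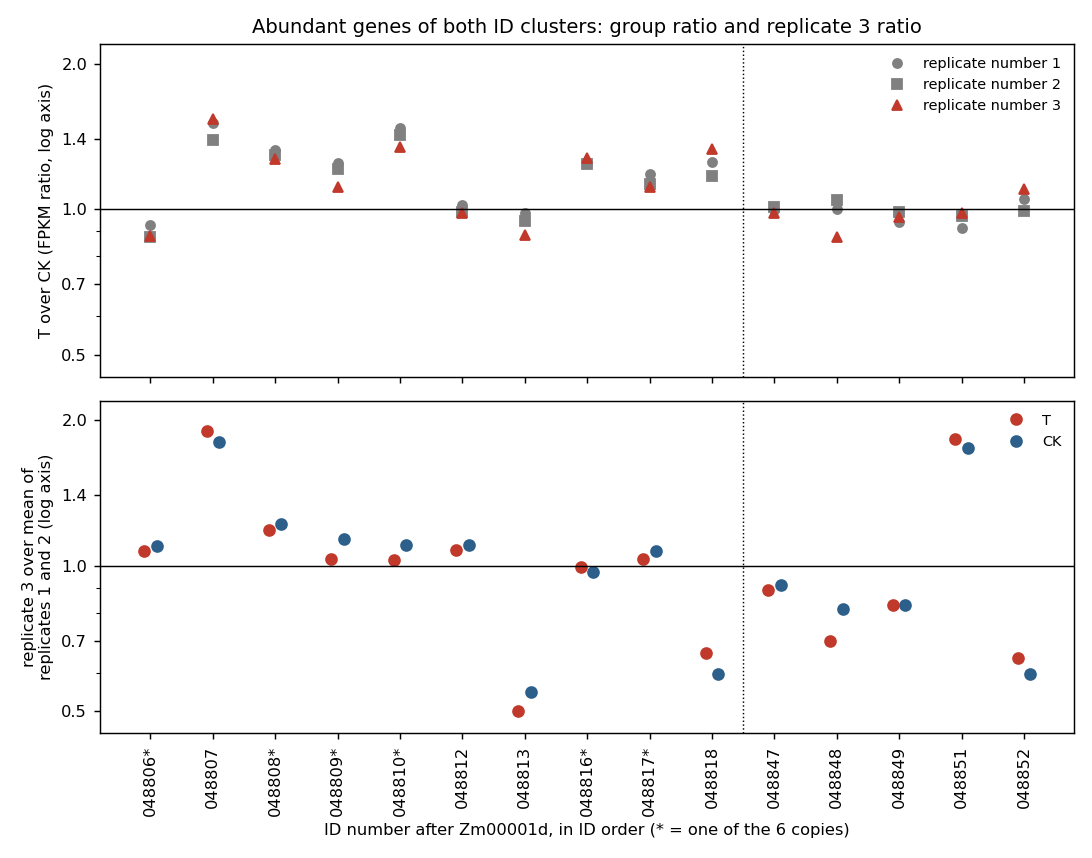
Top, FPKM ratio of T over CK within each replicate number, and bottom, FPKM of library 3 over the mean of libraries 1 and 2 in T (red) and CK (blue), for the listed IDs of both clusters averaging 1000 FPKM or more, in ID order on log axes, with asterisks on the 6 copies and a dotted line between the clusters. The copies other than Zm00001d048806 lie above 1 in the top panel, Zm00001d048806 lies at 0.877 to 0.926 on deposited FPKM, and the bottom panel shows T and CK points side by side for every ID.

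Outside these sets, the genes whose pattern was most like that of the 6-copy sum were sought among 55 genes averaging 1000 FPKM or more, by Pearson's r of log2(FPKM + 1) over the 6 libraries. They were Zm00001d049476, with r = 0.975, and Zm00001d019155, with r = 0.939, which the files do not name. Zm00001d049476 had 76715 ± 4404 FPKM in T and 66510 ± 2953 FPKM in CK (SD, n = 3 each). Zm00001d019155 had 94653 ± 1163 FPKM in T and 86949 ± 5416 FPKM in CK (SD, n = 3 each). In both genes every T library lay above every CK library, which largely restates how they were chosen, since every T sum of the 6 copies lay above every CK sum.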

How the data were processed

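mRNA-seq libraries of kernels (SMARTER kit, per the labels' protocols) were compared, 3 T and 3 CK, with groups and replicate numbers from the sample titles. The authors deposited FPKM per gene and library, per the file headers, rounded to hundredths. The sources used here do not give the aligner, counter, build, annotation or the handling of fragments shared by similar copies, and the submitters' processing notes name DESeq2 without a role.

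From the deposited FPKM, log2(FPKM + 1) was fitted for the 20514 genes averaging 1 FPKM or more in limma 3.58.1 (R 4.3.3), with a mean trend and no covariate, 2-sided, with Benjamini-Hochberg adjustment over all of them and 0.05 as the threshold. All log2 fold changes are of these log values, which understates those of low genes. Percent differences and ratios of T over CK are of FPKM or of shares, without logs. The series text calls the libraries biological replicates. The fit was tested on simulated data. Shares and ratios of single copies were compared with exact permutation tests (SciPy 1.17.1).

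Across genes, deviations from the group mean correlated between same-numbered T and CK libraries at 0.135, 0.122 and 0.325. All exceeded 0.1, and the numbers were therefore treated as pairs. T library 1 and CK library 2 correlated at 0.105, so numbers 1 and 2 are not clearly told apart. The replicate block was run as an alternative.

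The members and lists were chosen with earlier results of these data known. Named are the 6 members, SUS1, the IDs between them, IDs Zm00001d048847 to Zm00001d048852 and the 2 genes most like the sum. Alternatives changed the pseudocount, filter, scaling, variance prior, weights, threshold and libraries. No member had values identical to another gene.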

Additional observations from a re-analysis of the deposited data

How the results depend on the processing

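Across 20 alternative fits, Zm00001d048810 kept its call in all 20, Zm00001d048816 in 18 and Zm00001d048808 in 11, while Zm00001d048809 passed in 10, Zm00001d048817 in 6 and Zm00001d048806 in 3. The 5 copies other than Zm00001d048806 stayed higher in T in all 20. Changes of filter, variance prior, threshold and replicate block leave a log2 fold change as it is, and the pseudocount hardly moves it at these levels. Only the other alternatives could turn a sign. Zm00001d048806 was lower except when FPKM was scaled to all but the 20 most abundant genes, where its log2 fold change was 0.0057. The number of copies called, 3 on deposited values, was 6 with the replicate block and without replicate 3 of both groups, 5 with median-ratio rescaling, with scaling to all but the 20 most abundant genes and with robust priors, and 1 with no filter on low values. Of all tested genes, 2.88% rose on deposited values and 6.29% with median-ratio rescaling. With the block 3.49% rose and 18.3% fell, and without replicate 3 2.04% rose and 12.0% fell. Scaling to all but the 20 most abundant raised 1399 of 20514 genes, and 7 of the 14 other abundant genes against 1 on deposited values. With robust priors 603 of 20514 rose, and with no filter 548 of 33051. Leaving out single libraries gave 1 (without T library 2) to 5 (without CK library 3) copies called, and 2331 to 3316 genes called over all. An adjusted p under 0.01 left 1591 genes called. With the replicate block 4469 genes were called, against 3907 without it. On the 3907, 591 were higher and 3316 lower; with median-ratio rescaling 1290 were higher and 1510 lower.

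The 6-copy sum in T over CK was 1.15 on deposited values, 1.27 with median-ratio rescaling and 1.29 with scaling to all but the 20 most abundant genes, and 1.12 to 1.18 when single libraries were left out. Scaling to all genes but the 6 members, added after seeing the data, gave 1.17. The sum of all listed IDs from Zm00001d048806 to Zm00001d048817 gave 1.14. The shares of the copies kept their direction under all 9 of their alternatives, with differences from -5.01 to -4.13 percentage points for Zm00001d048806, 0.930 to 1.94 for Zm00001d048808, 0.470 to 1.001 for Zm00001d048809, 1.18 to 1.37 for Zm00001d048810, 1.00 to 2.24 for Zm00001d048816 and -0.376 to -0.0040 for Zm00001d048817. Among the 9, the mean difference within replicate number equals the main value by construction. Unknown depth and unstated handling of fragments shared by similar copies limit the single-copy values.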
